A study of Homo sapiens with 12 samples.

Results

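The gene-poor interval of human chromosome 13 from 80520000 to 91390000 (hg38), called here the 13q31 desert, held 722 intergenic H3K9me3 peaks in SMARCA3 knockout (KO) 293T cells and 927 in wild-type (WT) 293T cells. These 1649 peaks, of 112068 in both lists together, are those that the authors annotated as OtherIntergenic and whose midpoint lies in the interval. The study profiled H3K9me3, trimethylation of lysine 9 of histone H3, by ChIP-seq. Its labels give 3 ChIP and 3 input libraries per genotype, with the genotypes SMARCA3_KO and WT and no treatment. SMARCA3, now named HLTF, encodes a DNA translocase of the SWI/SNF-related family with a RING finger, and 293T is a human embryonic kidney line that carries the SV40 large T antigen, a feature both groups share. The labels used here do not say how the knockout was made or whether the KO cells are 1 clone. The files used here were 1 peak list per genotype, with no column per library, so the spread between replicates and the read depth were not analysed here and no test between genotypes was made. A peak list does not measure expression and cannot check the knockout.

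H3K9me3 is laid down by histone methyltransferases such as SETDB1 and SUV39H1 and is read by HP1 proteins. It marks heterochromatin over repeats and in gene-poor parts of chromosomes, where it is known for keeping transposable elements silent. Gene deserts are long stretches with few protein-coding genes and often lie at the nuclear periphery.

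The interval was chosen by earlier results of these lists, the peak bases per window of 1 Mb, which were fewer in KO than in WT in several of its windows. The difference between the lists is therefore given as a description throughout. At the lower limit the first KO peak inside began at 80522605 with a fold enrichment of 4.05, and the nearest one outside at 80516288 with 2.05. In WT the first inside began at 80529300 with a fold of 3.77, and the nearest outside at 80515207 with 4.87. At the upper limit the last peak inside began at 91379711 in KO and at 91379761 in WT, with folds of 4.59 and 3.38. The next intergenic peaks lay beyond the gene GPC5, at 92884723 in KO and 92875247 in WT, with folds of 3.12 and 3.52. Fold enrichment is the authors' value for each peak, read here as ChIP signal over background.

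The name of a gene desert held for the annotation. In 10.87 Mb the RefSeq table lists 106 genes, of which 5 are protein-coding, 0.460 per Mb against 3.22 per Mb in the rest of chromosome 13. SLITRK1, SLITRK6 and SLITRK5, which encode transmembrane proteins with leucine-rich repeats that act in neurite growth and synapse formation, are 3 of them, and LOC124900338 and LOC124903229 are the others. Another 56 are long noncoding RNA genes, 35 pseudogenes, 8 microRNA genes and 2 snoRNA genes. Of the members, 108 of 722 KO peaks (15.0%, Wilson 95% interval 12.5 to 17.7) and 161 of 927 WT peaks (17.4%, 15.1 to 19.9) overlapped one of these RefSeq genes although the authors' annotation placed them between genes. Wilson intervals here treat peaks as independent and cover counting only.

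Sequence was at hand for promoters alone. Of 41 RefSeq promoters inside the interval (250 bases before to 50 after a transcript start, GRCh38.p14), 4 met a member, all of them at noncoding RNA genes, and they are shown because an intergenic peak overlapped their window. Peaks that the authors annotated to promoters are not members and were not counted here. In LINC00379 and LOC105370290, the capitals mark bases under a peak in both lists. In LOC105370304, whose window was met by a KO peak alone, and in LOC105370286, whose window was met by WT peaks alone, they mark bases under a peak of that list. The sequences run 5′ to 3′ on the strand of the gene, which is minus for all but LOC105370304.
LINC00379 (chr13:91211649-91211948): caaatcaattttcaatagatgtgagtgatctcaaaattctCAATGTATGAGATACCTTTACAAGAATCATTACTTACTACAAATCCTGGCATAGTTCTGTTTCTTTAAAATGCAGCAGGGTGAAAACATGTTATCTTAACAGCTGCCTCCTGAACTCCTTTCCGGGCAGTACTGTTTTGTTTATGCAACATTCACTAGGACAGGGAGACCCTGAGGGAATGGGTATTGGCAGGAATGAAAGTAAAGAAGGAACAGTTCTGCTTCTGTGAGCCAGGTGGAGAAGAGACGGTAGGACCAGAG
LOC105370290 (chr13:84901437-84901736): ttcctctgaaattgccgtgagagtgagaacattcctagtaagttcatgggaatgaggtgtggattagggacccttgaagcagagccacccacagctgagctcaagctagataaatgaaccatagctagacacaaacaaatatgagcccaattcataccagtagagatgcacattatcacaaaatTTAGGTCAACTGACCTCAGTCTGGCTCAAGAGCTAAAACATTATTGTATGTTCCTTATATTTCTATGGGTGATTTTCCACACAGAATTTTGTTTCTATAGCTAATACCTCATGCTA
LOC105370304 (chr13:87853573-87853872): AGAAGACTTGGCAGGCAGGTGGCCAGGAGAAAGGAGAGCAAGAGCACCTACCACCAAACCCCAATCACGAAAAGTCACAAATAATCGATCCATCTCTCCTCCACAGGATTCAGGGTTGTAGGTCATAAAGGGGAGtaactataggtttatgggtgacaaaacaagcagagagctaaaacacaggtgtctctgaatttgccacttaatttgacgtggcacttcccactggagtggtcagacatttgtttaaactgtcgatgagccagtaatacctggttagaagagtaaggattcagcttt
LOC105370286 (chr13:83817676-83817975): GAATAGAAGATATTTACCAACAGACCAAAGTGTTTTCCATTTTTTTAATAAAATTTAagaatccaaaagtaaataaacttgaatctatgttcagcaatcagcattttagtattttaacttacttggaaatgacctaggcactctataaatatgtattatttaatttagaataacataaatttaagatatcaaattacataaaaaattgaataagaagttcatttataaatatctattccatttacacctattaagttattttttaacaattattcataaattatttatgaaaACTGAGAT
The KO and WT peaks over LINC00379 had folds of 4.08 and 5.18 and covered 260 and 300 of its promoter bases. Over LOC105370290 they had folds of 3.87 and 4.58 and covered 300 and 116 bases. The KO peak at LOC105370304 had a fold of 3.49 and covered 135 bases at the upstream end, short of the transcript start. That KO peak met a WT peak of fold 2.79, which ended at 87853530, before the promoter window, so the place was called in both lists. At LOC105370286 WT peaks with folds of 3.83 and 4.28 covered 65 bases at the ends of the window and not the start itself. The motif CG, which reads the same on both strands, occurred 2, 1, 4 and 0 times in these promoters in the order printed, and their GC content was 41.3%, 40%, 45.3% and 21%. The median was 2 CG over the 41 promoters of the interval and 14 over all 35116 promoters of the table. Promoters with at most 5 CG made up 80.5% of those in the interval and 33.7% of the table.

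The lists were first compared for the extent of the mark in the desert. Fewer places were called in KO, and they were narrower. The 722 KO peaks covered 482397 bases with a mean width of 668.1 bp, and the 927 WT peaks covered 681427 bases with a mean width of 735.1 bp. KO over WT was 0.779 for peaks (Wilson 95% interval 0.707 to 0.858) and 0.708 for covered bases. In intergenic peaks of chromosomes 1 to 22 and X outside the interval these ratios were 1.43 (1.40 to 1.45) and 1.65, and in the rest of chromosome 13 they were 1.32 (1.24 to 1.40) and 1.26. The mean density in the desert was 66.4 KO and 85.3 WT peaks per Mb. Wide peaks, above 1 kb, made up 15.0% of KO and 20.6% of WT members, while outside the interval they made up 22.1% of KO and 16.8% of WT intergenic peaks. Number and width of peaks both enter the bases by which the interval was chosen.

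Peaks of either list were of ordinary strength for their own list. KO members had a median fold of 3.49, with a range of 1.90 to 10.2, and WT members a median of 3.70, with a range of 1.81 to 9.45. In the ranking of its own list the median KO member stood at percentile 41.6 and the median WT member at percentile 46.0. A like fold came with a smaller q-value in KO, since members with a fold from 3.4 to 3.6, 117 in each list, had a median q of 5.90e-07 in KO and 4.04e-05 in WT. With q held at or below 1e-05, a bound that reaches weaker KO than WT peaks, 574 KO and 582 WT members were left. Their ratio of 0.986 (0.879 to 1.11) has an interval that includes 1, and it stood beside 1.93 for intergenic peaks outside the interval. With the KO list cut to the 46898 peaks of lowest q, the length of the WT list, 438 KO members stood against 927 in WT, which gives 0.472 (0.422 to 0.529).

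In the desert the ratio was lower among stronger peaks. On chromosomes 1 to 22 and X outside it, the ratio was 1.43 for all peaks and 1.14 (1.10 to 1.17) from a fold of 4. There it was higher again from a fold of 5, at 1.37 (1.29 to 1.46), and from a fold of 6, at 1.53 (1.37 to 1.71). From a fold of 4 the members were 185 in KO against 338 in WT, which gives 0.547 (0.458 to 0.655), and from a fold of 5 they were 53 against 112, which gives 0.473 (0.342 to 0.655). From a fold of 6, 23 KO and 42 WT members remained, a ratio of 0.548 (0.331 to 0.906). In the rest of chromosome 13 the ratio was 0.991 (0.888 to 1.11) from a fold of 4 and 1.14 (0.872 to 1.48) from a fold of 6. At each of the 7 fold minimums plotted, the interval for the desert lay below that of intergenic peaks on chromosomes 1 to 22 and X outside it. The desert was chosen for fewer KO peak bases, and the 7 minimums are nested sets of the same peaks, so this is a description.

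**Figure D1:**
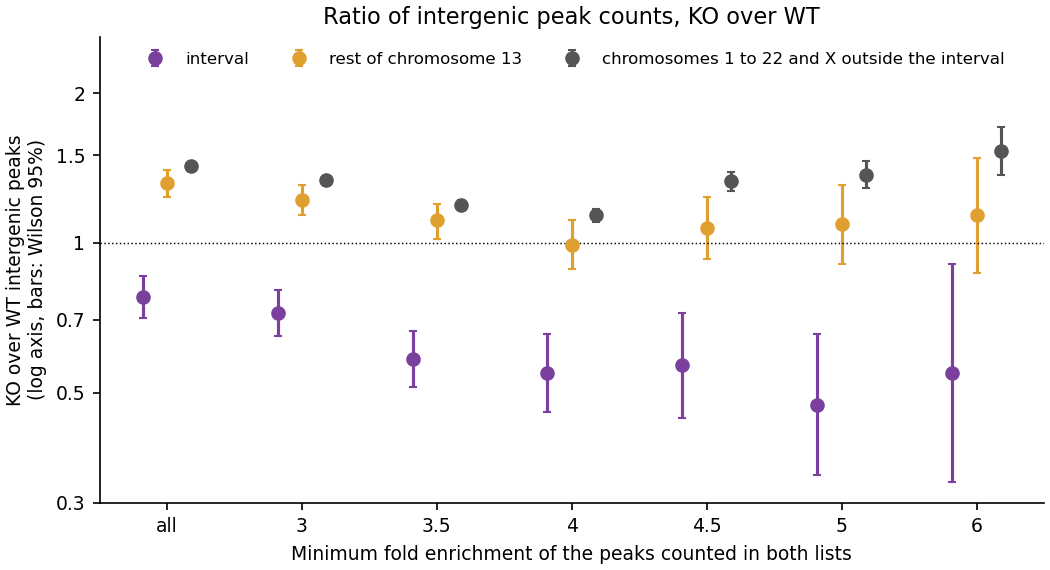
Ratio of KO to WT intergenic peak counts (vertical log axis) for peaks at or above the fold enrichment on the horizontal axis, in the 13q31 desert, in the rest of chromosome 13 and in chromosomes 1 to 22 and X outside the desert; bars are Wilson 95% intervals and the dotted line is a ratio of 1. The desert lies below 1 at each minimum, at 0.779 for all peaks and 0.547 from a fold of 4.

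Along the interval the deficit was uneven. Of the 10 windows of 1 Mb that lie wholly inside it, 9 held fewer KO than WT member bases, where 14.3% of such windows did so over chromosomes 1 to 22 and X. The largest difference lay from 81 to 82 Mb, with 43 KO and 113 WT peaks and 36131 and 86346 bases. From 88 to 89 Mb there were 42 KO and 89 WT peaks over 26821 and 67058 bases, and from 89 to 90 Mb there were 35 and 64 peaks over 26893 and 53229 bases. The ratios of peaks in these windows were 0.381 (0.268 to 0.540), 0.472 (0.328 to 0.680) and 0.547 (0.363 to 0.823). They hold no protein-coding gene of the RefSeq table, and neither does the window from 82 to 83 Mb, with 126 KO and 140 WT peaks. The window from 87 to 88 Mb, with SLITRK5, had nearly as many peaks in both lists, 44 in KO and 47 in WT. The 250 kb with SLITRK5 itself, from 87.5 to 87.75 Mb, held no member of either list. The window from 85 to 86 Mb, with SLITRK6, had 45 KO and 60 WT peaks (0.750, 0.511 to 1.10).

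One full window went the other way. From 83 to 84 Mb KO had 178 peaks over 95028 bases and WT had 144 peaks over 84431 bases. The ratio was 1.24 (0.993 to 1.54). SLITRK1 lies in the last 250 kb of this window, which held 20 KO and 21 WT peaks. At the upper end, the part beyond 91 Mb held 28 KO and 21 WT peaks (1.33, 0.763 to 2.33). In windows of 250 kb, 33 of 44 had fewer KO than WT peaks and 8 had more, while over chromosomes 1 to 22 and X 21.1% had fewer and 59.5% had more.

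The excess in KO was concentrated in 0.750 Mb. The windows from 82.75 to 83.5 Mb were the single run of at least 3 adjacent windows of 250 kb with more KO than WT peaks, a rule set after the values were seen. KO had 183 peaks there over 98109 bases and WT had 125 over 73344, which gives a ratio of 1.46 (1.17 to 1.84). This was close to the ratio of 1.43 (1.40 to 1.45) for intergenic peaks of chromosomes 1 to 22 and X outside the interval. The windows of the stretch held 58, 65 and 60 KO peaks and 37, 48 and 40 WT peaks, the highest counts of the interval in both lists. That is 244.0 KO and 166.7 WT peaks per Mb. Below it, from 80.52 to 82.75 Mb, there were 144 KO and 266 WT peaks (ratio 0.541, 0.442 to 0.663), and above it, from 83.5 Mb to the upper limit, 395 and 536 (0.737, 0.647 to 0.839). The windows below it formed a run with fewer KO peaks, and a second run of at least 7 such windows lay from 87.75 to 89.5 Mb, with 65 KO and 144 WT peaks (0.451, 0.337 to 0.604). Of these KO peaks 63 met a WT peak, and of the WT peaks 54 met a KO peak.

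**Figure D2:**
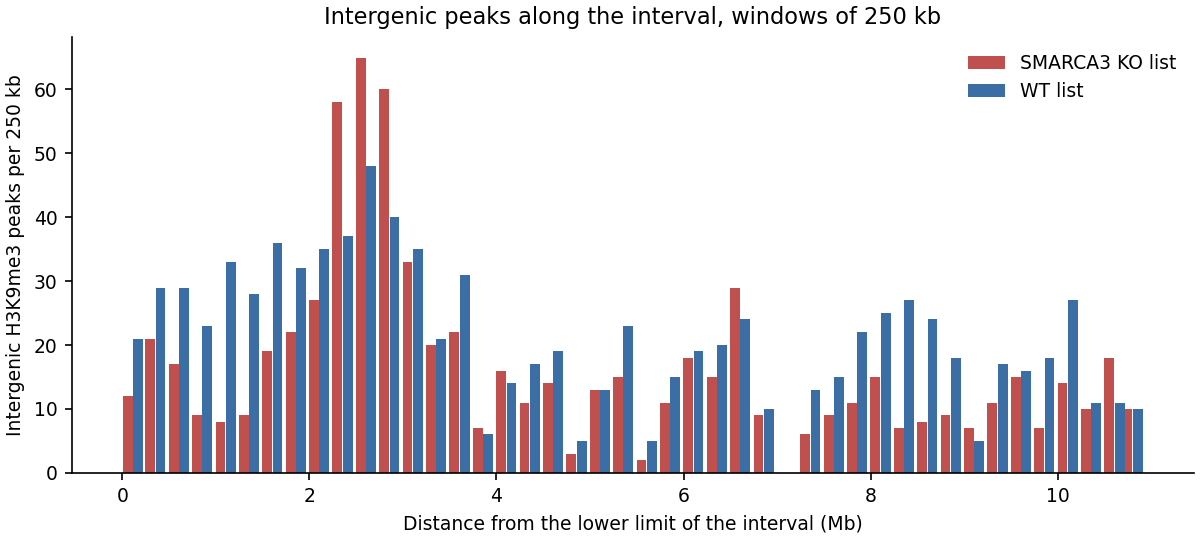
Intergenic H3K9me3 peaks per window of 250 kb (vertical axis) against the distance from the lower limit of the desert in Mb, with the KO list left of the WT list in each window; the first and last windows are cut by the limits. KO bars exceed WT bars in the 3 tallest windows, with 58, 65 and 60 KO and 37, 48 and 40 WT peaks, and stand below them in 33 of 44 windows.

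The second comparison asked whether the peaks of the lists lay at the same places. Most KO places had a WT peak, while WT places had a KO peak about as often as not. These shares depend in part on how many peaks each list holds, and so on the difference by which the interval was chosen. No WT peak met 231 of 722 KO members, or 32.0% (28.7 to 35.5), against 50.9% of all intergenic KO peaks, and no KO peak met 459 of 927 WT members, or 49.5% (46.3 to 52.7), against 22.3% of all intergenic WT peaks. In the rest of chromosome 13 the shares without a partner were 43.8% in KO and 24.3% in WT. By bases, 66.9% of KO member bases lay under WT peaks and 47.3% of WT member bases under KO peaks. A partner within 1 kb was found for 78.5% of KO and 65.5% of WT members. Under a reciprocal overlap of 50%, the share with a partner was 38.1% for KO and 29.7% for WT members.

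In the 3 windows of largest difference in bases, KO peaks were nearly a subset of WT peaks. These windows were picked for few KO bases, and few KO peaks limit the WT share with a partner. The shares are therefore a description. From 81 to 82 Mb, 40 of 43 KO members met a WT peak (93.0%, 81.4 to 97.6) and 36 of 113 WT members met a KO peak (31.9%, 24.0 to 40.9). From 88 to 89 Mb the numbers were 40 of 42 KO and 35 of 89 WT members, and from 89 to 90 Mb they were 32 of 35 and 25 of 64. In the dense stretch from 82.75 to 83.5 Mb, 85 of 183 KO members (46.4%) and 84 of 125 WT members (67.2%) had a partner. There 98 KO peaks had no WT peak and 41 WT peaks had no KO peak. Outside the interval 48.6% of KO and 78.9% of WT intergenic peaks had a partner, so the KO share of this stretch was near that level.

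**Figure D3:**
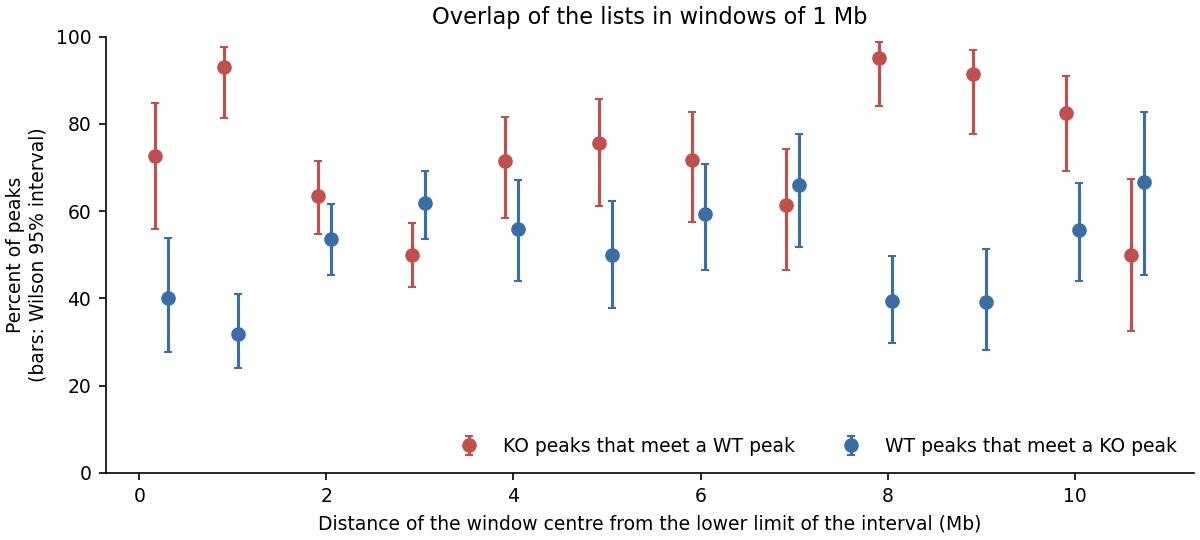
Percent of KO members that meet a WT peak and of WT members that meet a KO peak by at least 1 bp (vertical axis), in windows of 1 Mb placed by the distance of their centre from the lower limit; bars are Wilson 95% intervals. The lists part most from 81 to 82 Mb and from 88 to 90 Mb, where KO shares are 93.0%, 95.2% and 91.4% and WT shares 31.9%, 39.3% and 39.1%. These windows also have the largest deficit of KO bases, on which both shares depend in part.

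Members without a partner were narrower and weaker in both lists. KO members without one had a median width of 357 bp and a median fold of 3.36, and KO members with one 534 bp and 3.59. The same values were 381 bp and 3.61 without and 687.5 bp and 4.01 with a partner in the WT list. Of members above 1 kb, 104 of 108 in KO (96.3%, 90.9 to 98.6) and 170 of 191 in WT (89.0%, 83.8 to 92.7) had a partner. The same class outside the interval stood at 87.4% in KO and 98.0% in WT. In the top quartile of fold of the own list, 144 of 156 KO members (92.3%) and 185 of 240 WT members (77.1%, 71.4 to 81.9) had a partner, against 80.6% of KO and 94.1% of WT peaks of that quartile outside the interval.

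Where a KO and a WT member met one to one, the WT peak was usually the wider. Among 329 such pairs the KO peak was wider in 112 and the WT peak in 216, or 65.7% (60.4 to 70.6), and 1 pair was equal. KO peaks of these pairs had a median width of 486 bp, WT peaks one of 646 bp, and the median ratio of KO to WT width was 0.817. Among 9941 pairs of intergenic peaks outside the interval the WT peak was wider in 28.7%, and the median ratio was 1.24. Width is part of the peak bases by which the interval was chosen, so this contrast is a description and no separate support.

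**Figure D4:**
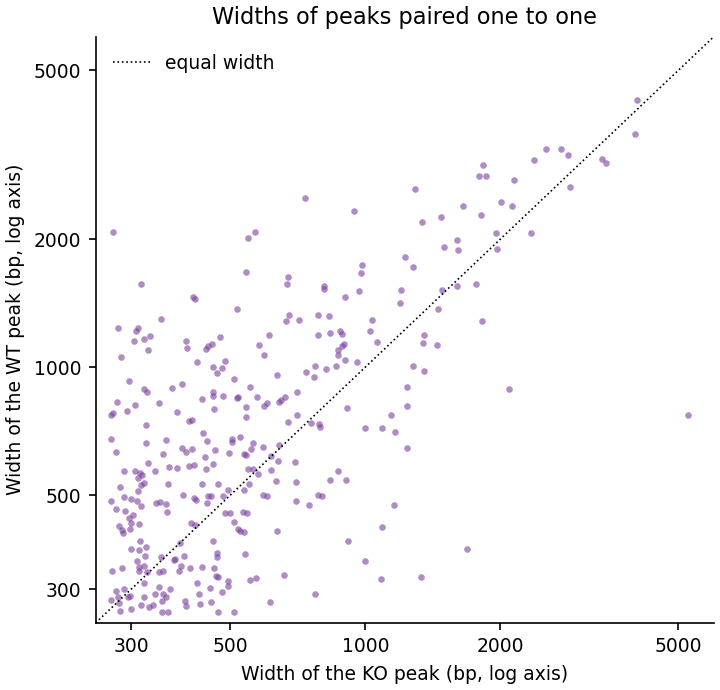
Width in bp of the KO peak (horizontal log axis) and of the WT peak (vertical log axis) for the 329 pairs of members that met one to one; the dotted line marks equal width. More points lie above the line, where the WT peak is wider, with 216 pairs above and 112 below.

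The strongest places were marked in both genotypes. The KO peak of highest fold ran from 87153416 to 87155422 with a fold of 10.2, and its WT partner from 87153168 to 87155621 with 8.03, each within the top percent of its own list. A peak from 82605691 to 82609134 followed in KO with 8.84, against 6.15 in WT. The KO peaks beginning at 87254680, 91275464 and 80816427 had folds of 7.91, 7.53 and 7.53, and the strongest WT peaks they met had folds of 5.66, 7.79 and 6.06. These 5 were each above percentile 99 of the KO list.

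At one of the strongest WT places the KO peak was weak. The KO peak from 81696468 to 81699330 had a fold of 3.19, at percentile 22.8 of its list, and the WT peak over the same place, from 81696397 to 81699055, had a fold of 8.63, at percentile 99.7. This place lies in the window of the largest difference. A pair in that window, named after its values were seen, went the other way. Its KO peak, from 81886997 to 81888793, had a fold of 5.27 (percentile 93.5) and its WT peak one of 2.21 (percentile 0.655). At the remaining 4 of the 5 WT peaks of highest fold, which began at 85548122, 85027305, 87153168 and 91275836, the KO partners had folds of 7.22, 7.09, 10.2 and 7.53. The WT peaks themselves had folds of 9.45, 8.18, 8.03 and 7.79.

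Several wide WT peaks were matched by separate, smaller KO peaks. In KO, 4 peaks with 3743 bases in all lay over the widest WT member, which ran from 80824920 to 80829709 (4790 bp, fold 5.66). Another 4 KO peaks with 1651 bases lay over the WT peak from 81895385 to 81899902 (4518 bp, fold 6.69), and 2 KO peaks with 2985 bases over that from 89257242 to 89261966 (4725 bp, fold 7.40). The widest KO member, from 85697237 to 85702499 (5263 bp), was faint, with a fold of 2.46, and met a single WT peak of 771 bp. The next in KO were 4051 bp, beginning at 82734060 with a fold of 6.37, and 4000 bp, beginning at 91275464, and they met WT peaks of 4263 and 3546 bp.

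The widest members without a partner differed in strength and isolation. In KO it ran from 83515394 to 83517232 (1839 bp, fold 2.21) and the nearest WT peak was 979 bp away. In WT it ran from 81431609 to 81433801 (2193 bp, fold 4.56) and the nearest KO peak was 36948 bp away. Chosen after its values were seen, the strongest WT member without a partner had a fold of 6.35, at percentile 98.3 of its list (90582307 to 90583804), and the nearest KO peak lay 13032 bp away. The strongest such KO member had a fold of 4.96 (86959039 to 86959757), with a WT peak 704 bp away.

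Many members without a partner lay close to a peak of the other list. Of 231 such KO members, 61 (26.4%) lay more than 5 kb from any WT peak and 2 more than 20 kb, and of 459 such WT members, 191 (41.6%) and 52 lay that far from any KO peak. Among intergenic peaks without a partner outside the interval, 56.3% in KO and 44.3% in WT lay more than 5 kb away. More than 20 kb away lay 37.0% and 29.0% of them. Such distances depend on how densely the other list is peaked, which was not adjusted for. Members without a partner formed runs in both lists. The longest 3 runs held 7, 7 and 6 consecutive members in KO and 12, 11 and 11 in WT. Run length depends on the share without a partner, and no expected length was computed. The first of these runs lay from 83348698 to 83389653 in KO and from 81368613 to 81470354 in WT. That WT run spanned 101742 bp with folds from 3.22 to 4.64, and the KO list had 1 peak in that span. The WT list had 3 peaks in the span of the first KO run and 5 in that of the second.

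The longest stretches empty of intergenic peaks overlapped between the lists. The longest ran from 87412953 to 87853398 in KO (440446 bp) and from 87412321 to 87790687 in WT (378367 bp). It holds SLITRK5 and the noncoding gene MIR4500HG, and peaks of other annotation classes were called there, 10 in each list. MIR4500HG itself had 8 peaks in each list. The next were 292496 bp in KO from 86033076 and 269048 bp in WT from 86055737, then 239752 bp in KO from 89577058 and 218253 bp in WT from 89573618.

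Of the protein-coding genes of the interval, SLITRK6 alone carried a peak. Counts were not scaled to gene length, so they do not show whether these genes are less marked than the desert around them. SLITRK1 (83877205 to 83882474) carried no peak, and its nearest member lay 10361 bp away in KO and 10577 bp away in WT, with folds of 3.59 and 4.40. SLITRK6 (85792790 to 85799419) carried 1 peak in its body in each list, 681 bp wide with a fold of 3.36 in KO and 1217 bp wide with a fold of 4.46 in WT. Within 100 kb of it lay 10 KO and 18 WT members. SLITRK5 (87671371 to 87679616) carried none, and its nearest peak of any class lay 60009 bp away in KO and 59254 bp away in WT. LOC124900338 and LOC124903229, which lie beside SLITRK5, carried none either.

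The genes beside the limits differ greatly in length, and the counts of peaks over them were not scaled to it. SPRY2, which encodes an inhibitor of receptor tyrosine kinase signalling, lies below the interval (80335976 to 80341126) and carried no peak, and its nearest peak of any class was 16450 bp away in KO and 48322 bp away in WT. GPC5, the gene of a glypican, lies above it (91398621 to 92867237), and 98 KO and 112 WT peaks overlapped its body. The nearest member lay 18500 bp from it in KO and 18110 bp in WT. MIR17HG, the host gene of an oncogenic microRNA cluster, lies inside the upper limit (91347687 to 91354577). It carried no peak, its nearest member lay 5413 bp away in KO and 8477 bp away in WT, and 10 members of each list lay within 100 kb. The microRNA genes MIR4500 and MIR622 carried no peak in either list.

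Peaks of the interval that the authors assigned to genes, which are not members, numbered 57 in KO over 42836 bases and 65 in WT over 52139 bases. Long intergenic noncoding RNA genes took 49 of them in KO and 57 in WT, spread over 19 genes. LINC00351 had 11 KO and 6 WT peaks and LINC00379 had 3 and 0, although peaks of both lists annotated as intergenic lay over the RefSeq promoter of LINC00379. AL353633.1 had 4 and 7, LINC00410 had 0 and 3, and LINC01047 and LINC01049 had 1 and 4 each. These genes were named for the largest differences after their values were seen.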

How the data were processed

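The series holds H3K9me3 ChIP and input libraries of KO and WT 293T cells. Per the labels' protocols, formaldehyde-fixed chromatin was sonicated and precipitated with an anti-H3K9me3 antibody; the labels list the molecule as total RNA although the protocol describes chromatin. The submitters' processing notes name HISAT2 and hg38. The sources used here do not give the peak caller, its use of input or the combination of the 3 replicates. Per the file headers, the authors gave each peak a fold enrichment (a ratio) and a q-value. Both stayed as deposited. No column belongs to a single library, so depth and replicate error are unknown.

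Peaks met where they overlapped by at least 1 bp with any peak of the other list. Positions were read as counted from 1. All values were computed with Python 3.11.15 and pandas 2.3.3, and Wilson 95% intervals with statsmodels 0.14.6; a ratio's interval is that of the KO share. Overlap calls were tested on simulated data. Promoters and genes came from RefSeq tables (GRCh38.p14); 241 of 241 gene names of chromosome 13 matched by symbol had overlapping coordinates. On that chromosome 147 overlapping promoter pairs had the same bases where they overlapped. Peaks were named by rule: the 5 of highest fold, the 3 widest and the widest without a partner in each list, the windows of largest difference, the longest empty stretches and the genes above. Members, lists and rules were chosen with earlier results of these data known. Alternatives changed the thresholds, list length, overlap, classes, merging and windows.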

Additional observations from a re-analysis of the deposited data

How the results depend on the processing

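No paired analysis was possible because each result comes from 1 list per genotype and from no test, and no replicate could be left out. Of 42 alternatives over 6 results, 13 stayed within the counting interval of the reported value, 29 moved beyond it and 0 reversed. Reversal was defined for the ratios and the share of windows, and not for the shares of members with a partner. The ratio of peaks at q of 1e-05 or below, 0.986 (0.879 to 1.11), counts as moved although its interval includes 1. For covered bases and for the ratio against other peaks, which have no interval of their own, the relative width of the interval of the ratio of peaks was used. The KO to WT ratio of members was 0.545 when fold had to reach the pooled median (3.69), 0.547 from a fold of 4, 0.986 at q of 1e-05 or below, and 0.472 and 0.525 with the KO list cut to 46898 peaks by q or by fold. For covered bases the ratios in that order were 0.545, 0.534, 0.789, 0.529 and 0.514. Divided by the ratio of all other intergenic peaks, the members' ratio was 0.546, and 0.492, 0.482 and 0.466 at the median fold, at a fold of 4 and with the list cut by q. The share of KO members with a WT peak was 60.6% at the stricter q, 76.0% and 71.7% with the cut lists by q and by fold, 38.1% with 50% overlap and 78.5% within 1 kb. The share of WT members with a KO peak was 35.8%, 34.9%, 54.8%, 36.2% and 37.2% at the median fold, from a fold of 4, at the stricter q and with the lists cut by q and by fold, 29.7% with 50% overlap of both peaks and 65.5% within 1 kb. Windows of 1 Mb with fewer KO bases made up 70% at the stricter q, 100% at both fold minimums and with both cut lists, and 85% and 78% when windows were 500 and 100 kb long. The cause of these shifts was not tested. Depth is unknown, so a place without a peak need not be unmarked.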
